A study of Homo sapiens with 18 samples.

Results

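The genes described here are the protein-coding genes with the most exons that the 2 sarcoma lines of the study express. A gene was taken when its annotation in the count tables merged to 60 or more exon blocks, a block being a stretch of genome covered by at least 1 annotated exon of the gene, and when its mean raw count over the 12 libraries of parental cells was 100 or more. The rule gave 86 of the 57500 genes in the tables. A further 44 protein-coding genes had 60 or more blocks but fell below the level, so the class holds 86 of 130 such genes. Of 11777 protein-coding genes at that level, 11691 had fewer than 60 blocks, and these served as the comparison. The level was measured in libraries that also enter the tests below, so the level of the members is a description and not a result.

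Poly-A selected RNA was sequenced from ES8, a Ewing sarcoma line, and Rh30, a rhabdomyosarcoma line, with 3 libraries in each of 6 groups. All cells carried dCas9-KRAB, a nuclease-dead Cas9 fused to a transcriptional repressor, and were selected in puromycin for 72 h after an sgRNA had been introduced by lentivirus. In each line, parental cells received either a non-targeting sgRNA (sgCTL) or an sgRNA against the start of *DNAJC17* (sgDNAJC17), which lowers transcription of the gene and is called knockdown below. The remaining group of each line stably expressed 3xFLAG-DNAJC17-dRRM, a tagged protein without its C-terminal RNA recognition motif, from a lentiviral EF1 vector and also received sgDNAJC17 (dRRM cells). Per the methods of the paper, cells given such a vector were also selected in hygromycin, a step not described for parental cells. No dRRM cells with sgCTL were included, so dRRM cells differed from sgCTL cells in the transgene, in its transduction and selection, and in the sgRNA. The 3 libraries of a group came from triplicate platings, and p-values measure the spread between these only.

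DNAJC17 is a J-domain co-chaperone of HSP70 that has been found with the splicing machinery. Splicing removes introns one at a time, mostly while the transcript is still being made, so a transcript with very many exons needs a correct cut and join at each of many sites before it can be exported and translated. Genes of this kind mostly encode giant proteins, among them muscle filaments, dynein motors, collagens, fibrillins, ubiquitin ligases and large kinases.

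Totals ran from 35342393 to 48245989 counts per library. *DNAJC17* itself was at 11.3 to 12.6 CPM (counts scaled to the TMM-adjusted size of the library) in ES8 sgCTL and 1.53 to 1.93 after knockdown, and at 10.8 to 12 and 2.21 to 2.73 in Rh30. In dRRM cells its counts, which include any reads from the transgene, were 285 to 316 CPM in ES8 and 331 to 364 in Rh30, so they do not report on the endogenous gene. The lines matched their labels: 5 Ewing sarcoma genes summed to 338 to 387 CPM in ES8 and at most 0.243 in Rh30, and 5 rhabdomyosarcoma genes to 1790 to 2850 in Rh30 and 91.0 to 121 in ES8. Within Rh30 the rhabdomyosarcoma sum was 2750 to 2850 in sgCTL, 2330 to 2520 after knockdown and 1790 to 1990 in dRRM cells, while 5 epithelial genes summed to 1.13 to 1.56, 12 to 17.9 and 13.2 to 15.2 CPM. The part of these shifts in the results below was not tested. In such bulk samples fewer cells of a type and less RNA per cell cannot be told apart.

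The members had a median of 74.5 blocks, from 60 to 368, against a median of 11.0 in the genes with fewer than 60. Other features moved with exon number. The median coding sequence was 10578 bases in the members and 1428 bases in the other genes, the median span from first to last exon 246670 and 34026 bases, and the median GC content of the exons 46.3% and 48.3%. Their individual blocks were shorter, with a median of 143 bases against 176.5. The mean raw count over the parental libraries was similar, with a median of 1297.88 in the members and 1402.08 in the others.

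The gene with the most blocks was *TTN* (368 blocks; GRCh38 chromosome 2, 178525989 to 178830802, minus strand), which encodes the giant sarcomere spring titin. It was followed by *NEB* (182; chromosome 2, 151485336 to 151734487, minus strand), the thin-filament protein nebulin. Next came *SYNE1* (154; chromosome 6, 152121684 to 152637801, minus strand) and *SYNE2* (130; chromosome 14, 63852983 to 64226433, plus strand), the nesprins that tie the nucleus to the cytoskeleton. At the other end, *ITPR2*, *KMT2C* and *NBEAL1* had 60 blocks, with mean counts of 766.2, 1862 and 422, and *DOCK10* had 61. Just outside were *ANK3*, *DNAJC13*, *ITPR3* and *VPS8* with 59 blocks and *CACNA1C*, *DOCK2*, *MTOR* and *PDE4DIP* with 58. On the level, *TTN* (mean count 102.2), *RYR3* (104.6), *LAMA3* and *DNAH17* (both 105.2) were just inside, and *DNAH11* (95.67), *CSMD3* (88.83) and *ANKRD36* (88.33) just outside. Blocks merge all annotated transcripts of a gene. In the canonical transcript 67 of 85 members with one had 60 or more exons and 18 had fewer. In 40 members no exonic base lay under another gene, and in 11 more than 5% did, led by *TTN* (87.6%), *CDH23* (19.4%), *USP34* (18%) and *NBPF10* (17.5%). Reads there cannot be told apart by gene, and *NBPF10* also has near-identical copies, so its counts are uncertain.

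After knockdown in ES8, most of these genes were lower. *PRKDC*, the catalytic subunit of DNA-dependent protein kinase, the dynein heavy chains *DYNC1H1* and *DYNC2H1*, the nesprins, ubiquitin ligases and most matrix genes fell, each by less than 2-fold. Of 84 members tested, 62 were called lower and 2 higher by edgeR's quasi-likelihood test at an adjusted p under 0.05. Among all 17143 genes tested, 13.8% were called lower and 13.6% higher. The median log2 fold change was -0.495 in the members and -0.0155 in all genes tested. In 70 of the 86 members all 3 knockdown libraries lay below all 3 sgCTL libraries and in 2 they lay above, against 28.6% and 22.4% of the protein-coding genes at this level. With a fold change of 2 added to the call, edgeR gave 0 members in either direction, as did DESeq2 and as did edgeR at an unadjusted p under 0.05, and 0.286% of all genes lower and 1.66% higher. *TTN* and *DMD*, the dystrophin gene, were too low in ES8 to be tested.

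The fall was visible in each library. *PRKDC* was at 770, 816 and 799 CPM in the sgCTL libraries and at 427, 439 and 419 after knockdown, a log2 fold change of -0.88 ± 0.05 (SE, adjusted p = 3.2e-05 by edgeR). *DYNC1H1* (chromosome 14, 101964528 to 102050792, plus strand), the heavy chain of cytoplasmic dynein, was at 398, 456 and 432 CPM and then at 271, 221 and 217 (-0.85 ± 0.09, adjusted p = 0.00029 by edgeR). *SYNE2* was at 50, 65.5 and 60.2 CPM and then at 29.5, 34.0 and 31.4 (-0.88 ± 0.10, adjusted p = 0.00056 by edgeR). In these genes the groups did not overlap, and the lowest control was well above the highest knockdown library. The other members among the 8 with the largest fall in ES8 were *DYNC2H1*, the dynein heavy chain of cilia (-0.82), *LAMA2*, a laminin chain (-0.80), *FRAS1*, a basement membrane protein (-0.79), *DST*, a spectraplakin that links filament systems (-0.79), and *UTP20*, a factor of small-subunit ribosome assembly (-0.78). *LAMA2* was at only 1.15 to 1.29 CPM in ES8 sgCTL.

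The 2 members that rose in ES8 were *COL11A2*, a fibrillar collagen chain, and *DNAH17*, an axonemal dynein heavy chain. *COL11A2* was at 6.42, 6.25 and 5.88 CPM in sgCTL and at 13.0, 9.39 and 8.32 after knockdown (log2 fold change 0.73 ± 0.15, adjusted p = 0.0065 by edgeR). *DNAH17* went from 2.81, 3.47 and 3.14 CPM to 5.05, 4.02 and 4.27 (0.51 ± 0.13, adjusted p = 0.019 by edgeR). Both were low, and neither overlapped between the groups. Part of the exonic sequence of *DNAH17*, 9.7%, is shared with another gene. Without sgCTL replicate A or without sgCTL replicate C the count of risen members was 1.

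**Figure D1:**
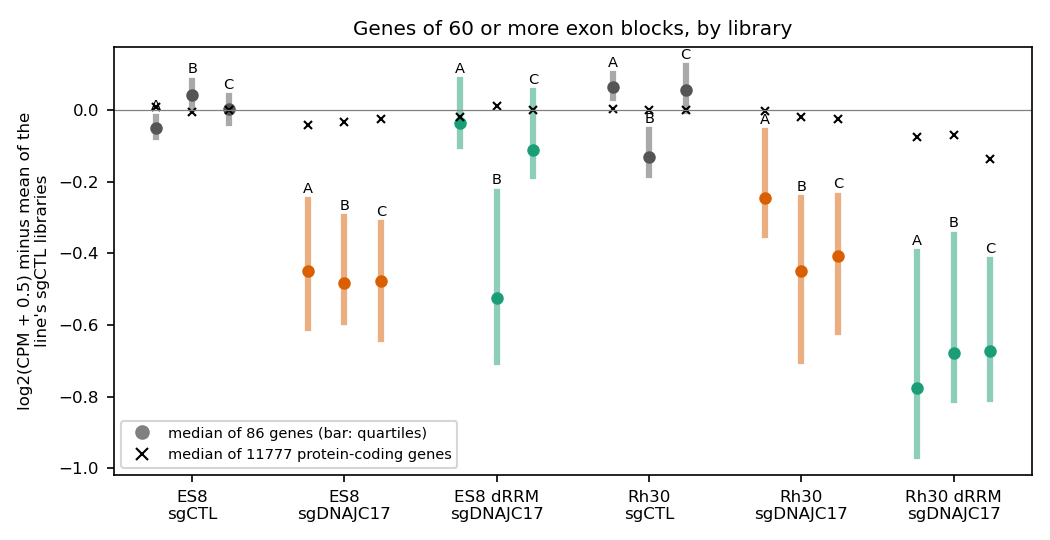
Deviation of the 86 members from the mean of their own line's sgCTL libraries in each of the 18 libraries (y axis, log2 of CPM plus 0.5; x axis, groups, with the letters A to C for libraries; circles, median over the members, and bars, their quartiles; crosses, median of the 11777 protein-coding genes at that level). In ES8 the 3 knockdown libraries have medians of -0.449, -0.482 and -0.476, and the dRRM libraries of -0.0348, -0.525 and -0.112; in Rh30 the knockdown medians are -0.244, -0.448 and -0.406 and the dRRM medians -0.777, -0.677 and -0.673.

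In Rh30 the same direction was seen. Of 80 members tested, 57 were called lower and 2 higher after knockdown, beside 16.2% of 15391 genes called lower and 16.1% called higher. The median log2 fold change of the members was -0.380. In 53 of 86 members the 3 knockdown libraries all lay below the sgCTL libraries and in 3 above, against 26.2% and 22.9% of protein-coding genes at this level. With a fold change of 2 added, 1 member was lower and 0 higher by edgeR and by DESeq2, and also by edgeR at an unadjusted p under 0.05; the shares of all genes were 0.786% lower and 0.767% higher. Knockdown library A deviated less than the others, with a median of -0.244 on the log2 scale against -0.448 and -0.406. Without it 65 members were called lower, and leaving out other libraries in turn gave 45 to 58. Libraries of the same replicate letter deviated alike in this comparison, but that they are true pairs was inferred from these data alone. With the letter as a block 65 members were called lower, 8 gained and 0 lost. Those gained include *COL5A1*, *FBN1*, *NF1* and *VPS13A*, and their calls rest on that pairing. Among the 6 members too low in Rh30 to be tested were *CDH23*, *COL11A1*, *COL11A2*, *FBN3* and *LRP1B*.

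*COL7A1* (chromosome 3, 48564073 to 48595267, minus strand), the anchoring-fibril collagen of the basement membrane and a gene of 113 blocks, had the largest fall and the only one beyond 2-fold. It was at 28.6, 24.8 and 23.6 CPM in sgCTL and at 12.1, 9.48 and 10.6 after knockdown, a log2 fold change of -1.24 ± 0.10 (adjusted p = 2.4e-06 by edgeR). *RYR1* (chromosome 19, 38433699 to 38587564, plus strand), the calcium release channel of skeletal muscle, went from 28.5, 23.8 and 26.7 CPM to 15.5, 12.3 and 13.3 (-0.92 ± 0.09, adjusted p = 2.3e-05 by edgeR). *SYNE2* went from 17.8, 15.2 and 21.3 CPM to 10.5, 7.82 and 10.9 (-0.88 ± 0.13, adjusted p = 0.00038 by edgeR). The groups did not overlap in any of these genes. The remaining largest falls were in *HSPG2*, the proteoglycan perlecan (-0.79), *HERC1*, a giant ubiquitin ligase (-0.74), *NBEA*, a protein of vesicle traffic (-0.72), *NEB* (-0.72) and *RYR3* (-0.71). *NEB*, a muscle gene, was at 24.2, 19.3 and 27.5 CPM in Rh30 sgCTL and at 16.6, 11.3 and 14.7 after knockdown.

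The 2 members that rose in Rh30 were axonemal dynein heavy chains. *DNAH14* was at 13.1, 14.1 and 13.8 CPM in sgCTL and at 16.9, 20.5 and 20.2 after knockdown (0.51 ± 0.09, adjusted p = 0.0011 by edgeR). *DNAH6* went from 9.26, 7.56 and 9.27 CPM to 10.6, 10.8 and 10.2 (0.29 ± 0.10, adjusted p = 0.038 by edgeR). DESeq2 called 1 member higher. Of the 3 axonemal heavy chains in the class, the call for *DNAH17* was in ES8 and those for the other 2 in Rh30.

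Of 78 members tested in both lines, 49 were called lower in both, while 6.18% of the 13841 genes tested in both were. Another 10 were called lower in ES8 alone, 8 in Rh30 alone and 8 in neither, and 71 had a negative log2 fold change in both. The remaining 3 were called higher in 1 line and not called in the other. Of the 8 members gained in Rh30 with the replicate block, 5 were called lower in ES8. Across the 78 the size of the change was only weakly related between the lines (Pearson's r = 0.096, Spearman's rho = 0.177, over genes that share the same libraries within a line). The members called in both with the smallest p-values included *DYNC1H1*, *FBN2*, *UTRN*, *HUWE1*, *HERC2* and *LRBA*. *FBN2*, the microfibril protein fibrillin 2, was at 151, 159 and 148 CPM in ES8 sgCTL and 102, 92.4 and 86.7 after knockdown, and at 86.4, 73.6 and 88.8 and then 63.8, 51.0 and 49.8 in Rh30. *HERC2*, a ubiquitin ligase, was at 196, 216 and 207 and then 162, 143 and 136 CPM in ES8, and at 112, 92.7 and 112 and then 83.1, 62.4 and 66.2 in Rh30. Both were lower in every knockdown library than in every control library of the same line.

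**Figure D2:**
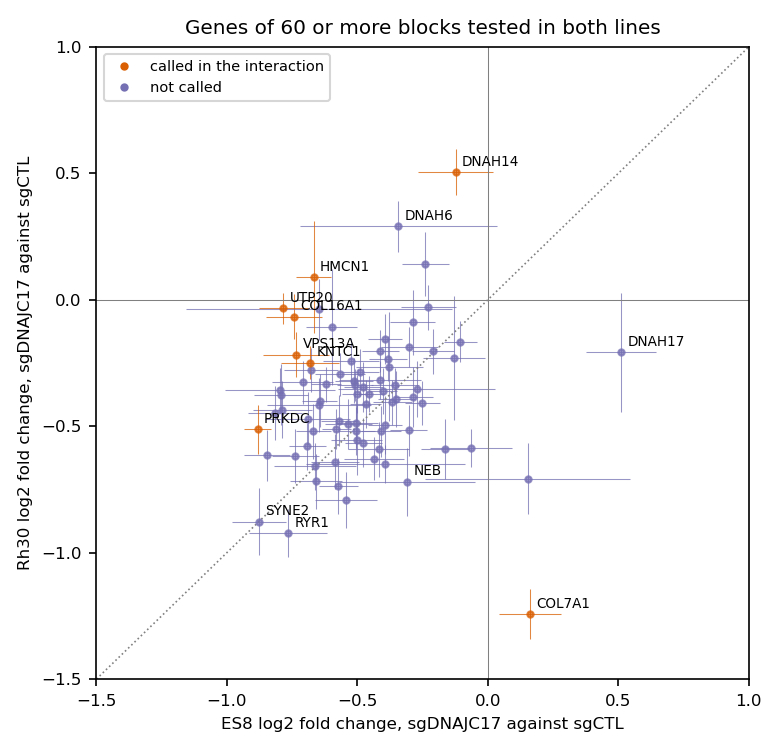
Log2 fold change after knockdown in ES8 (x axis) and in Rh30 (y axis) for the 78 members tested in both lines, each point a gene. Bars are standard errors, and orange marks genes called in the interaction. Negative values in both lines are seen in 71 of 78 genes, and COL7A1 lies farthest from the dotted line of equal change.

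Whether the change differed between the lines was tested as the interaction of cell line and sgRNA, coded as the Rh30 change minus the ES8 change. Of 86 members, 7 were called higher and 1 lower by edgeR, near the 5.23% and 4.55% of 18899 genes, and the median difference was 0.138. DESeq2 called 8 higher and 2 lower, and a fit with the replicate letter as a block 12 and 2. With a fold change of 2 added, 1 member was lower and 0 higher by edgeR and by DESeq2 (1 higher by DESeq2 and 0 by edgeR at an unadjusted p under 0.05), beside 0.714% and 0.55% of all genes. That member was *COL7A1*, which was at 3.74, 4.29 and 3.57 CPM in ES8 sgCTL and at 4.58, 4.12 and 4.20 after knockdown (0.16 ± 0.12, adjusted p = 0.34 by edgeR), so that its difference between lines was -1.38 ± 0.16 (adjusted p = 5.7e-05 by edgeR). *UTP20* went the other way. It was at 127, 122 and 128 CPM in ES8 sgCTL and 61, 76.5 and 80.2 after knockdown, but at 99.3, 90.3 and 99.2 and then 94.9, 92.0 and 92.1 in Rh30, with a log2 fold change of -0.03 ± 0.06 there and a difference of 0.78 ± 0.11 (adjusted p = 0.00032 by edgeR). *COL16A1*, a fibril-associated collagen, fell by 0.74 on the log2 scale in ES8 and had -0.07 in Rh30 (difference 0.70, adjusted p = 0.0059 by edgeR). *HMCN1*, a hemicentin of the matrix, was at 281 to 325 CPM in ES8 sgCTL but at 0.917 to 1.15 CPM in Rh30, where its change rests on few counts.

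The members were next set beside genes of similar level with fewer blocks. Level here means the raw count, which was not corrected for length. The median exonic length was 17176.5 bases in the members and 5202 bases in genes with fewer than 60 blocks, so equal counts are not equal reads per base. Over protein-coding genes with a mean count of 100 or more, the share called lower after knockdown in ES8 was 5.34% with 1 to 2 blocks, 8.71% with 3 to 9, 15.8% with 10 to 19, 36.1% with 20 to 39, 66.8% with 40 to 59 and 73.8% in the members. The median log2 fold change went from 0.148 through 0.0684, -0.0355, -0.185 and -0.355 to -0.495. In Rh30 the shares were 9.09%, 10.8%, 20.1%, 35.5%, 62.2% and 71.2%, and the medians went from 0.106 through 0.0956, -0.0056, -0.141 and -0.288 to -0.380. The members were thus the end of a gradient over exon number, and genes of 40 to 59 blocks lay close to them. The lowering by block class was also seen within bands of level. Among genes with a mean count over 4000, 95% of 20 members were called lower in ES8 and 85.0% in Rh30, against 14.5% and 19.2% of genes with 10 to 19 blocks. Among genes with 100 to 500 counts the shares were 31.2% and 37.5% of 16 members, against 16.4% in each line. In that band the members were not the end of the gradient in ES8, since 52.7% of genes with 40 to 59 blocks were called lower there, with a median of -0.411 against -0.326 in the members. In Rh30 that share was 38.1%, also above the 37.5% of the members, but the median was -0.177 against -0.236 in the members.

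**Figure D3:**
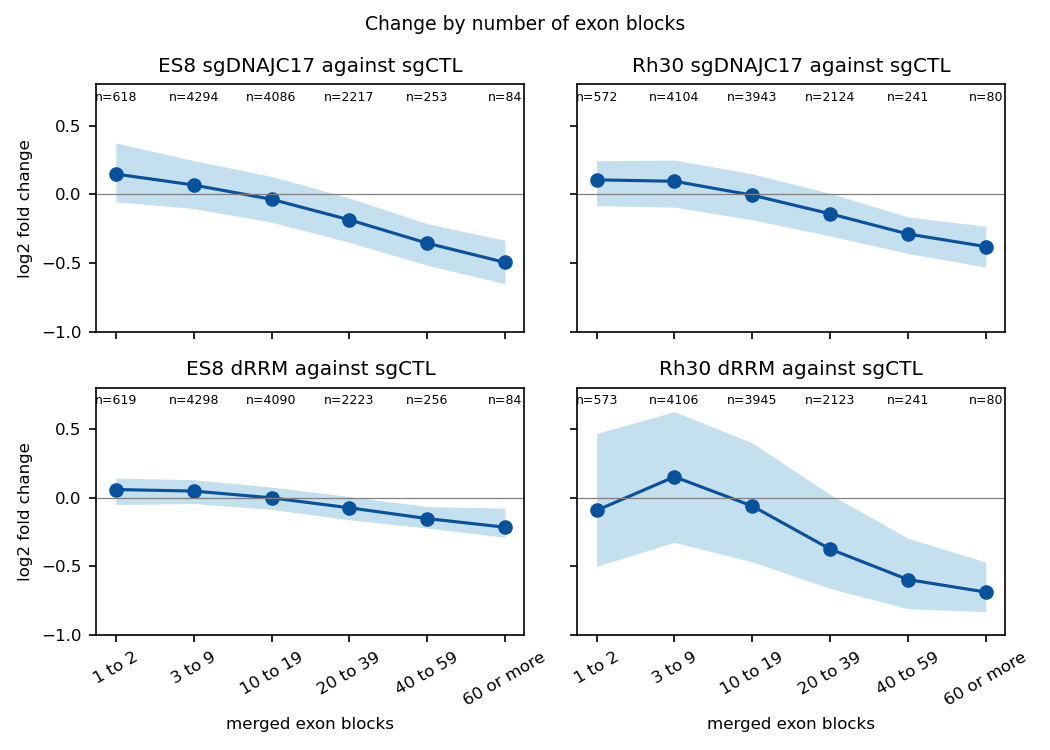
Median log2 fold change (y axis; points, median, and shading, quartiles over genes) by number of merged exon blocks (x axis) for protein-coding genes with a mean count of 100 or more, by comparison. After knockdown the medians fall from class to class in ES8, from 0.148 to -0.495, and in Rh30, from 0.106 to -0.380, and in dRRM cells of Rh30 against sgCTL the members are at -0.687.

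Exon number and coding length go together, so the classes were also compared within bands of coding length. Among genes with 5 to 7 kb of coding sequence in ES8, the median was 0.0448 with 10 to 19 blocks (44 genes), -0.28 with 20 to 39 (151), -0.393 with 40 to 59 (97) and -0.471 in the members (10). In Rh30 the same band gave -0.196 (43 genes), -0.307 (147), -0.317 (96) and -0.298 (8 members). With 7 to 9 kb the ES8 medians were 0.219 (9 genes), -0.204 (44), -0.362 (57) and -0.501 (17 members), and the Rh30 medians -0.236 (9), -0.276 (44), -0.368 (55) and -0.348 (16 members). In both bands the classes thus lay farther apart in ES8 than in Rh30. Most members have longer coding sequences. With 9 to 12 kb the medians in ES8 were 0.0651 (6 genes), -0.296 (16), -0.451 (9) and -0.415 (20 members), and in Rh30 -0.321 (6), -0.339 (14), -0.395 (9) and -0.348 (20 members), so the members were not the lowest class in either line. Over 12 kb, where the other classes held at most 8 genes each, the members had -0.512 in ES8 (33 genes) and -0.489 in Rh30 (32 genes). Within a band of total exonic length, 12 to 16 kb, the medians of both lines fell with block number, from -0.026 with 10 to 19 blocks to -0.601 in 20 members in ES8 and from -0.0288 to -0.471 in Rh30. A set chosen after its values were seen, protein-coding genes at this level with 5 kb or more of coding sequence and fewer than 20 blocks, had a median of 0.0617 in ES8 (7 of 75 lower, 21 higher) and -0.236 in Rh30 (31 of 75 lower, 2 higher). The interaction called 20 of these 78 genes lower, meaning a more negative change in Rh30, and 1 higher.

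Over all protein-coding genes at this level, Spearman's rho of the log2 fold change with block number was -0.403 in ES8 and -0.358 in Rh30, with coding length -0.306 and -0.439, and with GC content 0.0862 and -0.423. These are descriptions over genes that share libraries. Among the members alone, rho with block number was -0.0658 in ES8 and -0.244 in Rh30. When the counts were corrected for length and GC content in each library, 57 members were called lower in ES8 and 52 in Rh30, of which 57 and 51 were among those called without the correction, and the medians were -0.30 and -0.270.

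**Figure D4:**
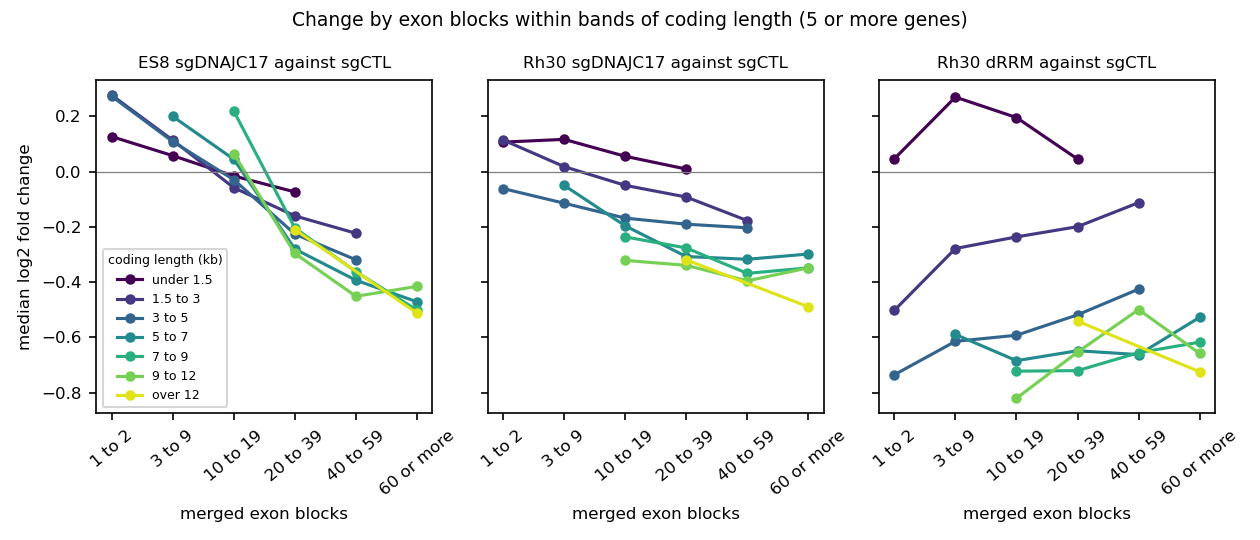
Median log2 fold change (y axis) by number of merged exon blocks (x axis), with 1 line for each band of coding length in kb, for knockdown in each line and dRRM cells of Rh30 against sgCTL. In the band of 5 to 7 kb the ES8 medians spread from 0.0448 with 10 to 19 blocks to -0.471 in the members, while in Rh30 they run from -0.196 to -0.298 after knockdown and from -0.684 to -0.527 in dRRM cells.

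In ES8 dRRM cells the members lay, in the median, between the sgCTL and the knockdown level. Against sgCTL, edgeR called 0 of 84 members in either direction and DESeq2 0 higher and 1 lower, beside 0.093% and 0.0814% of 17199 genes called higher and lower. At an unadjusted p under 0.05, edgeR had 1 member higher and 21 lower, and the median was -0.215. With a fold change of 2 added there were 0 members in either direction by both tools and at an unadjusted p, beside 0.0116% and 0.0233%. Against knockdown, 19 members were called higher and 2 lower (7.35% and 7.36% of 17099 genes), with a median of 0.271. Adding a fold change of 2 left 2 members higher and 0 lower by edgeR and by DESeq2 (3 and 0 by edgeR at an unadjusted p under 0.05), beside 0.48% and 1.49%. These comparisons share the dRRM libraries. The first shares its controls with the knockdown comparison, and the second shares its knockdown libraries with it. Of the 62 members that fell after knockdown, 19 were called higher in dRRM than in knockdown cells. The median of the 62 was -0.232 against sgCTL and 0.338 against knockdown. The 62 were chosen by low values in these same knockdown libraries, so part of that rise can follow from the choice.

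The dRRM libraries of ES8 were unlike each other in these genes. Counts on members made up 0.846%, 0.545% and 0.775% of the library in A, B and C, against 0.858% ± 0.0388 (SD, n = 3) in sgCTL and 0.571% ± 0.0119 (SD, n = 3) after knockdown. Library B was thus at the knockdown level. *PRKDC* was at 763, 486 and 677 CPM in A, B and C, *DYNC1H1* at 432, 296 and 404, and *SYNE2* at 56.9, 31.8 and 50.4. In each of these genes B was the lowest of the 3 and near the knockdown libraries. In library B the deviation from sgCTL had a rho of -0.561 with coding length across genes, against -0.154 in A and -0.220 in C. Without library B, 45 members were called higher than knockdown and 1 lower, with a median of 0.423, and against sgCTL 2 were higher and 1 lower, with a median of -0.0647. Without A the count higher than knockdown was 12, and 6 were lower than sgCTL. Without C it was 7.

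The 4 largest called rises over knockdown in ES8 dRRM cells were in matrix genes, *FRAS1*, *LAMA2* (1.06), *COL16A1* and *COL27A1* (0.82). *FRAS1* was at 7.09, 6.88 and 6.69 CPM in sgCTL, 4.26, 3.84 and 3.75 after knockdown and 11.5, 6.13 and 10.4 in dRRM cells (1.24 ± 0.20 against knockdown, adjusted p = 0.0029 by edgeR). *COL16A1* was at 40.6, 45.8 and 41.5, then 29.6, 24.5 and 21.9, and 48.0, 47.5 and 45.4 CPM in dRRM cells (0.89 ± 0.12, adjusted p = 0.0010 by edgeR). Library B was lower than the others in *FRAS1* and close to them in *COL16A1*. The 2 genes that fell against knockdown were those that had risen, *COL11A2* (5.07, 5.58 and 5.10 CPM, -0.96 ± 0.16, adjusted p = 0.0031 by edgeR) and *DNAH17* (-0.72 ± 0.18, adjusted p = 0.020 by edgeR). Rise and fall were measured with the same knockdown libraries, so they are not independent.

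In Rh30 dRRM cells the members were lower still. Against sgCTL, 69 of 80 were called lower and 1 higher, beside 35.0% and 33.8% of 15442 genes, and the median was -0.687, with -0.0135 over all genes tested. The fall was not particular to the members. Of protein-coding genes at this level, 79.3% with 40 to 59 blocks were called lower, but 42.2% with 10 to 19. In the set of long coding sequence and few blocks described above, chosen after its values were seen, 66 of 75 were called lower (88.0%, median -0.722). All 3 dRRM libraries lay below all sgCTL libraries in 72 of 86 members, against 44.4% of protein-coding genes at this level. With a fold change of 2 added, 7 members were lower and 0 higher by edgeR and by DESeq2, and by edgeR at an unadjusted p (3.32% and 6.66% of all genes). Against knockdown, 46 members were lower and 7 higher (30.5% and 29.4% of 15309 genes), with a median of -0.268, and 4 were lower and 0 higher beyond 2-fold by both tools and at an unadjusted p (3.36% and 4.42%). In the set of long coding sequence and few blocks, 54 of 75 were lower than knockdown and 5 higher (median -0.462). Of the 57 members that fell after knockdown in Rh30, 55 were called lower than sgCTL in dRRM cells, 33 lower than knockdown and 6 higher. The 57 were chosen with the same sgCTL and knockdown libraries, so these counts are not independent of that choice. Counts on members were 0.730% ± 0.0673 (SD, n = 3) of the library in Rh30 sgCTL, 0.503% ± 0.0749 after knockdown and 0.378% ± 0.0275 in dRRM cells.

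The largest fall in Rh30 dRRM cells was in *DNAH6*, at 9.26, 7.56 and 9.27 CPM in sgCTL, 10.6, 10.8 and 10.2 after knockdown and 1.73, 2.67 and 2.29 in dRRM cells (-1.91 ± 0.14 against sgCTL, adjusted p = 7.6e-19 by edgeR). *COL5A1*, a regulatory chain of fibrillar collagen, was at 394, 356 and 338, then 354, 299 and 265, and 121, 125 and 134 CPM (-1.46 ± 0.07, adjusted p = 3.3e-27 by edgeR). *FBN1*, the microfibril protein fibrillin 1, was at 152, 134 and 161, then 149, 118 and 117, and 53.3, 55.7 and 53.2 CPM (-1.41 ± 0.07, adjusted p = 1.7e-26 by edgeR). In these genes the dRRM libraries stood apart from both other groups. The knockdown and sgCTL libraries overlapped in *COL5A1* and *FBN1*, which were not called after knockdown in Rh30 (adjusted p = 0.059 and 0.097 by edgeR) but were called lower with the replicate letter as a block (-0.24 ± 0.04, adjusted p = 5.2e-06, and -0.21 ± 0.05, adjusted p = 0.0015, by edgeR). *FRAS1* followed, with -1.35 ± 0.08. *RYR2*, the cardiac calcium release channel, had -1.27 ± 0.16 at a low level of 4.53 to 6.09 CPM in sgCTL. *PRKDC* was at 135, 144 and 144 CPM in dRRM cells, below the 264, 220 and 265 of sgCTL and the 204, 152 and 163 of knockdown. The only member called higher than sgCTL was *ADGRV1*, an adhesion receptor of sensory hair cells, at 0.990, 1.15 and 1.34 CPM and then 1.24, 1.65 and 2.12, which did overlap. *COL7A1* rose over knockdown, at 12.8, 14.6 and 16.9 CPM (0.49 ± 0.11, adjusted p = 5.9e-05 by edgeR), but remained below sgCTL. Among genes with 5 to 7 kb of coding sequence the members did not stand below the others here. The medians against sgCTL were -0.684 with 10 to 19 blocks, -0.648, -0.662 and -0.527 in the members. Corrected for length and GC content, *HSPG2* (0.161) and *LRP1* (0.203), an endocytic receptor, were called higher than sgCTL, where the uncorrected values were -0.66 and -0.53, and *COL7A1* (0.0086) was no longer called.

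**Figure D5:**
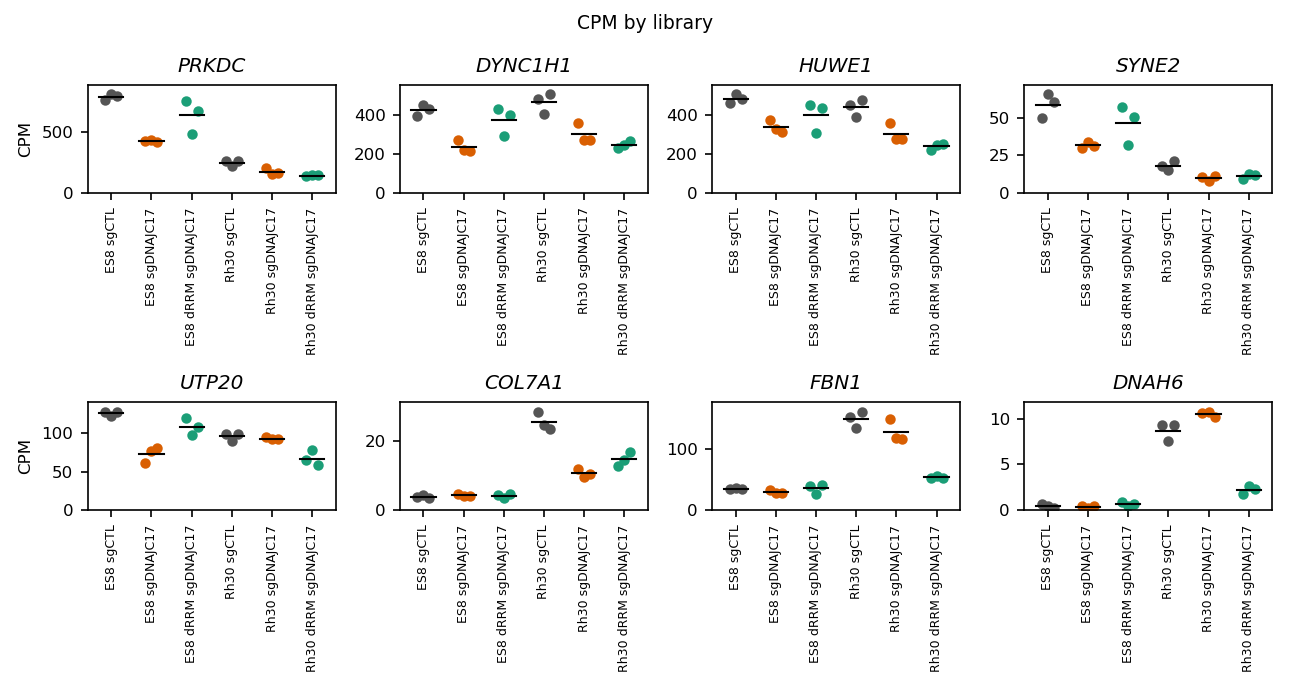
CPM in each library (y axis, linear from 0) of members described in the text, by line and group (x axis), each point a library and each bar the mean of 3. PRKDC and DYNC1H1 are lower in all 3 knockdown libraries of both lines, with ES8 dRRM library B near the knockdown level, UTP20 falls in ES8 but is at 92.0 to 94.9 after knockdown in Rh30, and COL7A1 is at 23.6 to 28.6 in sgCTL and 9.48 to 12.1 after knockdown in Rh30.

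Grouped by what their proteins do, in lists drawn up with earlier results of these data known, the members can be read beside the 13.8% (ES8) and 16.2% (Rh30) of all genes called lower after knockdown and the 73.8% and 71.2% of the members. The 12 genes of the ubiquitin and proteolysis list include *VPS13D*, whose relatives *VPS13A*, *VPS13B* and *VPS13C* are in the membrane traffic list. The 12 genes had mean counts of 1354 or more. Among members with 100 to 500 counts, the share called lower after knockdown was 31.2% in ES8 and 37.5% in Rh30. All 12 were called lower after knockdown in ES8 (median -0.495) and in Rh30 (median -0.450), beside medians of -0.495 and -0.380 in the class. In Rh30 dRRM cells all 12 were called lower than sgCTL (median -0.691, beside -0.687 in the class). They include *HUWE1* (chromosome X, 53532096 to 53686729, minus strand), at 463, 507 and 482 CPM in ES8 sgCTL, 374, 327 and 316 after knockdown and 451, 307 and 439 in dRRM cells (log2 fold change after knockdown -0.50 ± 0.07, adjusted p = 0.0010 by edgeR). In Rh30 *HUWE1* was at 455, 392 and 480, then 360, 279 and 277, and 222, 245 and 253 CPM. *UBR4*, which recognises degradation signals at protein ends, fell by 0.50 on the log2 scale in ES8 and by 0.49 in Rh30.

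The 3 PIKK-family kinases of the class, *PRKDC*, the DNA damage kinase *ATM* and the mRNA surveillance kinase *SMG1*, were called lower after knockdown in both lines. *ATM* was at 28.5, 29.3 and 33.2 CPM in ES8 sgCTL and 15.2, 20 and 20.1 after knockdown (-0.71 ± 0.12, adjusted p = 0.0024 by edgeR), and fell by 0.33 on the log2 scale in Rh30. In Rh30 dRRM cells *ATM* was not called against sgCTL (-0.07 ± 0.09, adjusted p = 0.50 by edgeR) while *PRKDC* (-0.77) and *SMG1* (-0.69) were. The 3 chromatin members, *TRRAP*, a scaffold of histone acetyltransferases, *KMT2C*, a histone methyltransferase, and *SMARCA2*, a remodelling ATPase, were lower in both lines, with log2 fold changes of -0.39, -0.30 and -0.57 in ES8 and -0.49, -0.52 and -0.29 in Rh30. *ACACA*, the acetyl-CoA carboxylase of fatty acid synthesis, fell by 0.62 in ES8 and by 0.33 in Rh30. *UTP20* is the member of the RNA processing list.

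Of 17 genes of cytoskeleton and motors, 10 of 15 tested were lower (66.7%) and 1 higher in ES8, and 10 of 16 lower (62.5%) and 2 higher in Rh30, a share below that of the whole class in both lines. Their median log2 fold change was not weaker, at -0.514 in ES8 and -0.398 in Rh30, beside -0.495 and -0.380 in the class. *UTRN*, the dystrophin relative utrophin, fell in both lines (-0.74 and -0.62), as did *MACF1*, a spectraplakin (-0.67 and -0.52), and *SPTAN1*, a spectrin chain (-0.40 and -0.36). *DMD* in Rh30 was at 17.2, 17.3 and 16 CPM in sgCTL and 18.3, 18 and 17.3 after knockdown and was not called (0.10 ± 0.08, adjusted p = 0.34 by edgeR), although it has 94 blocks and the largest span of the class, 2241765 bases. *TTN* was not called either (-0.22 ± 0.15, adjusted p = 0.28 by edgeR), at 5.64, 4.57 and 5.88 and then 4.08, 4.10 and 5.52 CPM, but was lower in Rh30 dRRM cells, at 1.91, 2.64 and 2.35 CPM (-1.17 ± 0.15, adjusted p = 6.0e-10 by edgeR).

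Of 18 matrix genes, 12 were lower (66.7%) and 1 higher in ES8, and 9 of 15 tested were lower in Rh30 (60%), again below the share of the class. Their median log2 fold change was -0.516 in ES8 and -0.355 in Rh30, beside -0.495 and -0.380 in the class. *COL27A1*, a fibrillar collagen, fell by 0.68 in ES8 and by 0.28 in Rh30, where the value corrected for length and GC content was 0.057 and not called. *HSPG2* went from 179, 191 and 166 CPM to 150, 109 and 107 in ES8 (-0.54 ± 0.12, adjusted p = 0.0082 by edgeR) and from 538, 446 and 519 to 354, 264 and 242 in Rh30. Of 16 genes of membrane traffic and guanine exchange, 12 were lower in ES8 (75%) and 10 in Rh30 (62.5%), among them *HTT*, the huntingtin gene (-0.25 and -0.41). *NF1*, a negative regulator of RAS, fell in ES8 (-0.41 ± 0.07, adjusted p = 0.0026 by edgeR), and in Rh30 it had -0.20 ± 0.08 (adjusted p = 0.079 by edgeR; 0.00052 with the replicate block). Of the receptors and channels, 5 of 9 were lower in ES8 (55.6%) and 4 of 7 tested in Rh30 (57.1%), among them *LRP1*, which went from 388, 431 and 392 to 369, 276 and 256 CPM in ES8 (-0.42) and had -0.59 in Rh30. Of 6 genes in no list, 3 were lower in ES8 and 5 in Rh30.

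The lines also differed before any knockdown. In sgCTL cells, 33 of 86 members were called higher in Rh30 than in ES8 and 45 lower (42.0% and 45.5% of 17925 genes), and 26 and 27 by 2-fold or more (22.2% and 28.7%). Several muscle genes were higher in Rh30. *DYSF*, the membrane repair protein dysferlin, was at 250, 228 and 240 CPM against 2.61, 2.65 and 2.44 in ES8, and *NEB* at 24.2, 19.3 and 27.5 against 1.5, 1.73 and 1.41. *DMD* was at 16 to 17.3 CPM and *TTN* at 4.57 to 5.88 in Rh30, with 3 counts each over the 3 ES8 libraries. *COL11A1* (57.7 to 63.2 CPM), *LRP1B* (30.3 to 32.6), *CDH23* (22.9 to 25.2) and *FBN3* (17.2 to 19.6) were expressed in ES8 and at no more than 0.0743 CPM in Rh30. The 8 members with no called difference between the lines include *MACF1* (0.07 ± 0.06, adjusted p = 0.22 by edgeR) and *DYNC1H1* (0.11 ± 0.06, adjusted p = 0.073 by edgeR).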

How the data were processed

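Per the labels, total RNA of 18 cultures was poly-A selected and sequenced, and the submitters' processing notes name Trimmomatic 0.36, STAR 2.5.2b, and featureCounts from Subread 1.5.2. The deposited files hold the raw count per gene that the authors obtained with featureCounts, with the exon coordinates of each gene. The notes give GRCh38 and the methods of the paper an earlier build; 86 of 86 members lie within 1000 bases, at either end, of their RefSeq GRCh38.p14 position, so coordinates are GRCh38. Whether counting used strand is not given in the sources used here.

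Biotypes came from GENCODE 44 by Ensembl identifier, and 2418 identifiers without one could not enter, 2 of them with 60 or more blocks at the level of the class. Exons were merged per gene. Counts were tested with edgeR 4.0.16 (R 4.3.3; TMM scaling, filterByExpr, quasi-likelihood test), with only the groups compared in each fit and Benjamini-Hochberg adjustment over all genes tested; a call needs an adjusted p under 0.05. CPM levels used TMM over all 18 libraries. DESeq2 1.42.0 was an alternative, as were other scalings, no filter, 1 fit of all 18 libraries, a lowess correction of each library for length and GC, each library left out, a replicate block, other limits of the class and a fold of 2; the class by canonical exons and without genes sharing over 5% of their exonic bases were added after the data were seen. In data simulated for ES8 knockdown, 200 of 200 genes changed 2-fold were recovered among 17144 tested, with 6 false calls. Only changes of 2-fold were simulated, and no member was called at that size in ES8 knockdown (median log2 fold change -0.495). The simulation therefore does not show how well changes of the members' size are recovered.

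Replicate letters were compared by the correlation of same-letter deviations. In Rh30 knockdown these were 0.577, 0.287 and 0.348 (A, B, C, 11426 genes). In the other comparisons at least 1 letter was at or below 0.1, and values reached -0.547 (letter A, ES8 dRRM against knockdown). The letters were therefore treated as possible pairs in Rh30 knockdown, from these data alone. No 2 libraries of a group agreed within sampling noise. The named genes were the 10 members with the most blocks, the 8 largest called changes each way per knockdown comparison, up to 12 called in both lines, the 5 smallest p of the interaction, the 4 largest each way per dRRM comparison, the 5 largest each way between lines, and 2 to 4 per role list by level. Members, lists and tests were chosen with earlier results of these data known. No protein or splice-site sequence was used. Results for a few members are not reported here.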

Additional observations from a re-analysis of the deposited data

Results flagged for a closer look

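The knockdown change of 8 members differed between the lines by the interaction test (edgeR, adjusted p under 0.05, Rh30 change minus ES8 change on the log2 scale). Over all 18899 genes tested, 5.23% were called higher and 4.55% lower, beside 8.14% and 1.16% of the members. The number of calls is thus not particular to the members. *COL7A1* had -1.38, having fallen in Rh30 and not in ES8. The other 7 differed in the opposite direction: *HMCN1* (0.78), *UTP20* (0.78), *COL16A1* (0.70), *DNAH14* (0.66), *VPS13A* (0.54), *KNTC1* (0.46) and *PRKDC* (0.39). *VPS13A*, a lipid transfer protein, was at 31.6, 31.9 and 34.7 CPM in ES8 sgCTL and 15.4, 21.7 and 21.4 after knockdown, and at 32.8, 34.5 and 39.2 and then 32.4, 26.3 and 31.9 in Rh30, where edgeR called it lower only with the replicate block (-0.22, adjusted p = 0.0042, against 0.079 without). *KNTC1*, a kinetochore protein of the spindle checkpoint, fell in both lines, by 0.68 on the log2 scale in ES8 and by 0.25 in Rh30. *HMCN1* was near 1 CPM in Rh30. Over protein-coding genes with a mean count of 100 or more, the difference between lines had a Spearman's rho of -0.42 with GC content. Among the members rho was -0.322. *COL7A1* had a GC content of 64.8%. Of the other 7, *COL16A1* had 62.3% and the rest had from 36.8% (*VPS13A*) to 45.1% (*PRKDC*). Causes were not tested.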

How the results depend on the processing

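In every alternative fit the members' medians after knockdown were below 0 in both lines, and 50 of 62 members in ES8 and 42 of 57 in Rh30 were called lower under every setting of the fit, libraries left out included. Leaving out 1 library at a time gave 53 to 69 members lower and 1 to 2 higher in ES8 (median -0.524 to -0.462), 45 to 65 and 1 to 2 in Rh30 (median -0.467 to -0.326), and 3 to 10 higher and 1 to 4 lower in the interaction. Against sgCTL it gave 0 to 2 higher and 0 to 6 lower in ES8 dRRM cells and 0 to 2 higher in Rh30 dRRM cells, and against knockdown 7 to 45 higher and 1 to 2 lower in ES8 and 3 to 10 higher in Rh30.

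Some limits change the class rather than the fit. With 50 or more blocks there were 110 lower in ES8 (median -0.466) and 98 in Rh30, 13 higher and 5 lower in the interaction, 1 higher in ES8 dRRM cells and 4 higher and 117 lower in Rh30 dRRM cells against sgCTL, 39 higher (ES8) and 13 higher and 78 lower (Rh30) against knockdown, and 56 higher and 83 lower between lines. With 80 or more there were 22 lower and 1 higher in ES8 (median -0.523), 23 and 1 in Rh30 (median -0.501), 3 higher in the interaction, 25 lower in Rh30 dRRM cells against sgCTL, 4 higher and 1 lower (ES8) and 4 higher and 16 lower (Rh30) against knockdown, and 14 higher and 19 lower between lines. With a mean count of 500 or more, 0 were higher in ES8, 1 in Rh30, 0 lower in the interaction, 0 higher in Rh30 dRRM cells against sgCTL and 0 lower in ES8 dRRM cells against knockdown. Without genes sharing over 5% of exonic bases, 1 was higher in ES8. With a fold of 2, 0 were called in ES8, 1 lower and 0 higher in Rh30, 0 higher in the interaction, 7 lower and 0 higher in Rh30 dRRM cells against sgCTL, 2 higher and 0 lower (ES8) and 0 higher and 4 lower (Rh30) against knockdown, and 27 lower between lines.

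Among settings of the fit, library totals alone gave a median of -0.541 in ES8, 1 higher in Rh30, 4 higher and 2 lower in the interaction, 0 higher in Rh30 dRRM cells against sgCTL and 1 against knockdown; they moved the median of all genes by -0.235 in Rh30 dRRM cells against sgCTL, -0.163 against knockdown and -0.214 between lines. DESeq2 gave 1 higher in Rh30, 2 lower in the interaction, 1 lower in ES8 dRRM cells and 0 higher in Rh30 dRRM cells against sgCTL, and 4 higher in Rh30 dRRM cells against knockdown. Without the filter there were 1 higher in Rh30, 3 lower in the interaction, 1 higher and 25 lower in ES8 dRRM cells against sgCTL and 29 higher against knockdown. With 18 libraries in 1 fit there were 1 higher in Rh30, 3 higher and 2 lower in the interaction and 31 higher in ES8 dRRM cells against knockdown.

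With the replicate block, 61 members were lower in ES8 and 65 in Rh30, 12 higher and 2 lower in the interaction and 1 lower in ES8 dRRM cells against sgCTL. Outside Rh30 knockdown the libraries share only a letter, and in Rh30 knockdown the pairing was inferred from the data alone. The length and GC correction gave medians of -0.30 (ES8) and -0.27 (Rh30), 15 higher in the interaction, 3 higher in Rh30 dRRM cells against sgCTL, and against knockdown 33 higher (ES8) and 17 higher and 30 lower (Rh30). Together with the block it gave 4 higher in Rh30, 16 higher and 3 lower in the interaction, 3 higher in Rh30 dRRM cells against sgCTL, and 36 higher (ES8) and 17 higher and 28 lower (Rh30) against knockdown. This correction turned the direction of *COL27A1* after knockdown in Rh30 (0.057, with the block 0.056), and in Rh30 dRRM cells against sgCTL of *HSPG2* (0.161 and 0.159), *LRP1* (0.203 and 0.202), *RYR1* (0.093 and 0.094), *HMCN2* (0.036 and 0.036), *COL27A1* (0.017 and 0.014) and *COL7A1* (0.0086 and 0.0067). Against knockdown it turned *HERC2* (0.105 and 0.105), *DYNC1H1* (0.019 and 0.021) and *TRRAP* (0.0066 and 0.0124), and between lines, without the block, *HUWE1* (0.047). The cause was not tested. At these depths the 10 members under a mean of 100 counts in ES8 sgCTL and the 11 in Rh30 sgCTL allow the least precise changes.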
